A study of Mus musculus with 6 samples.

Results

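The LIF, IL6 and STAT3 axis is described here by 10 genes: the cytokine genes Lif and Il6, the receptor genes Lifr, Osmr and Il6st, the transcription factor gene Stat3, its feedback inhibitor gene Socs3, the transcription factor genes Cebpb and Cebpd, and the acute-phase gene Saa1. They were taken by name from the 23337 genes of the count files, where each of the 10 is listed, and are set beside Serpina3n, a secreted protease inhibitor gene known to respond to STAT3. The cells were sorted mammary basal epithelium of 15-week-old mice on a 129/Sv X C57BL/6 background. Of 6 libraries, 2 came from wild-type mice (Vimwt/wt) and 4 from mice homozygous for the vimentin allele tm1Cba (Vimtm1Cba/tm1Cba), a germline knockout that is not limited to the epithelium. Sorting kept live CD24-low, CD49f-high cells and removed CD45 and CD31 carriers, and 2 to 3 animals were pooled for a library. The labels speak of 2 isolation experiments. A day code in the file names puts wild type 1 and knockout 1 and 2 in experiment 1, and wild type 2 and knockout 3 and 4 in experiment 2.

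LIF and IL6 are secreted cytokines of 1 family. Each binds receptor chains that include gp130, the product of Il6st; LIF pairs it with the LIF receptor and oncostatin M with the receptor encoded by Osmr. Bound gp130 activates JAK kinases, which phosphorylate STAT3, and STAT3 then switches on target genes such as Socs3, whose protein shuts the receptor off again. In the mammary gland this pathway is best known from involution after weaning, when LIF activates STAT3 and Cebpd is among the genes induced. STAT3 activity is set by phosphorylation, which messenger RNA levels do not measure.

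STAT dimers bind the palindrome TTCNNNGAA, which is its own reverse complement. The promoter windows of 3 genes are shown: the cytokine gene whose genotype groups did not overlap, the feedback gene, and the reference gene. Whether the motif bears on the expression values was not tested. RefSeq windows on GRCm38.p6, from 250 bases before to 50 after the start, were found for 9 of the 10 axis genes and for Serpina3n; Cebpd had no entry. Capitals mark the motif. The windows lie at chr11:4257318-4257617 on the plus strand (Lif), chr11:117969317-117969616 on the minus strand (Socs3) and chr12:104406458-104406757 on the plus strand (Serpina3n), each printed 5′ to 3′ along its gene.
Lif: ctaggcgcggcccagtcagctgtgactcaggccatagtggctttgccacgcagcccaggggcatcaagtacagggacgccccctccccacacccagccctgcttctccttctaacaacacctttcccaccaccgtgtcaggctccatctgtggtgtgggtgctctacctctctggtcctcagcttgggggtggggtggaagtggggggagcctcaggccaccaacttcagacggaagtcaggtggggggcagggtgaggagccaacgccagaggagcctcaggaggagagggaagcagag
Socs3: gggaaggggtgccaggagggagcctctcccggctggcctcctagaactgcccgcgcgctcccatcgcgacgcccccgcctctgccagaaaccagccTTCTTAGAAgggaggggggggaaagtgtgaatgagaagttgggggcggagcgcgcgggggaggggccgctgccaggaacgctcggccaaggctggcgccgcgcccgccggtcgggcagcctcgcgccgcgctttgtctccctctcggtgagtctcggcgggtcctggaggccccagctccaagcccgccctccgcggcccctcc
Serpina3n: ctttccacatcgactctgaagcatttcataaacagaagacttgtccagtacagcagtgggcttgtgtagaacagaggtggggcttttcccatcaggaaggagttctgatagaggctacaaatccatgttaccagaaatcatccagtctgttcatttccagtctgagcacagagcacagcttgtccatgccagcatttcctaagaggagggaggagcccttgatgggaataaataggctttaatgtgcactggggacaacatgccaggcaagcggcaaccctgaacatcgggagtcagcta
Of these 10 genes, Socs3 alone held the motif in its window, with its first base 154 bases before the start. Among all RefSeq promoter windows of the same length, 8.3% held it. The letters do not show whether STAT3 binds there, and sites outside the window were not searched.

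Total counts ran from 25347967 to 31200622 per library. Vim, the targeted gene, was at 215 and 241 CPM (a gene's counts relative to its library's TMM-scaled total) in wild type and at 92.4 to 111 CPM in the knockout, 0.461 of the wild-type mean. Basal markers were high, with the keratin gene Krt14 between 3905 and 4563 CPM in the 6 libraries. Markers of endothelium moved with genotype: 14 of 15 had a negative log2 fold change (median -1.85), their summed level was 137 to 319 CPM in wild type against 74.5 to 103 CPM in the knockout, and none was at 0 in all libraries. Pericyte markers summed to 302 and 311 CPM in wild type and 432 to 543 CPM in the knockout, although 6 of 8 had a negative log2 fold change (median -0.25). The most abundant, Mcam, was at 245 and 275 CPM in wild type and 387 to 497 CPM in the knockout. Mcam was called higher with the experiment in the model (edgeR adjusted p = 0.0094). Of 10 fibroblast markers, 9 had a negative log2 fold change (median -0.24). Immediate early genes, which also respond to tissue digestion, summed to 21364 and 22011 CPM in wild type and 20698 to 26813 CPM in the knockout, and 23 of 32 had a positive log2 fold change (median 0.10). Nothing in the labels says that libraries of the same experiment share animals, so p-values measure the spread between these pools. In bulk RNA a change in the mix of cells and a change of RNA per cell cannot be told apart.

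**Figure D1:**
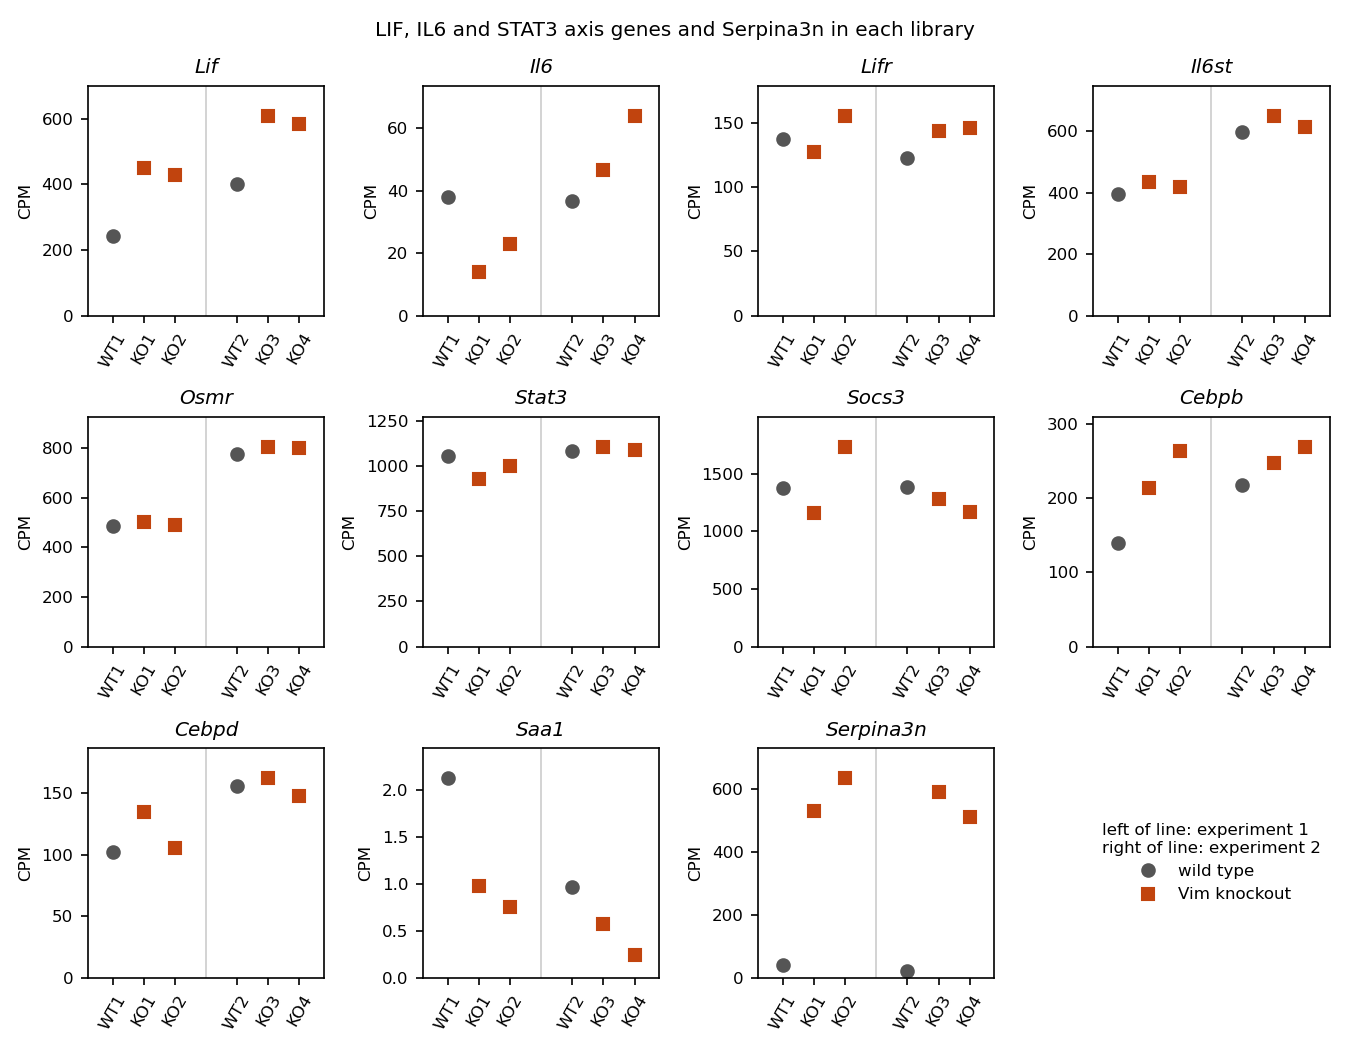
CPM of the 10 axis genes and Serpina3n in each library (y axes in CPM from 0, a panel per gene); circles are wild type, squares Vim knockout, and a line parts experiment 1 from experiment 2. Lif is higher in each knockout library than in the wild-type library of its experiment, Osmr and Il6st step up from experiment 1 to 2, and Il6 lies below wild type in experiment 1 and above it in experiment 2.

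Lif messenger RNA was higher in all 4 knockout libraries than in both wild-type libraries, but was called only with the experiment block. Lif (chr11:4257568-4272514, mm10, plus strand) encodes leukemia inhibitory factor, the ligand of the axis. Its level was 242 and 403 CPM in wild type 1 and 2 and 450.3, 428, 609 and 586 CPM in knockout 1 to 4. The groups did not overlap, and they came closest between wild type 2 and knockout 2, which are from different experiments. Across all libraries the mean rose from 323 ± 114 (SD, n = 2) to 518 ± 92.2 CPM (SD, n = 4), 1.61 times. With genotype as the only term the log2 fold change was 0.68 (SE 0.24, 95% interval 0.14 to 1.23) and was not called (edgeR adjusted p = 0.449). With the experiment as a replicate block it was 0.71 (SE 0.11, 95% interval 0.46 to 0.96), and Lif was called higher (edgeR adjusted p = 0.0155). Within experiment 1 the ratio of the knockout mean to wild type was 1.81 and within experiment 2 it was 1.48. The call with the block was lost without knockout 4 (log2 fold change 0.75, edgeR adjusted p = 0.0603), and also without either wild-type library. Without wild type 1 that fit compares genotypes within experiment 2 alone (0.59), and without wild type 2 within experiment 1 alone (0.86). These values therefore restate the differences within the experiments. By genotype alone Lif differed by 0.38 when wild type 1 was left out and by 1.10 when wild type 2 was. DESeq2 without the block did not call it (adjusted p = 0.145). Endothelial markers moved the opposite way and immediate early genes the same way in the median, and their part in the difference was not tested.

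Il6 did not differ by genotype over all libraries, but its level spread widely. Il6 (chr5:30013161-30019968, plus strand) encodes interleukin 6, the other ligand. It was at 37.9 and 36.6 CPM in wild type 1 and 2 and at 14.0, 23.1, 46.7 and 63.9 CPM in knockout 1 to 4. Both knockout libraries of experiment 1 lay below both wild-type libraries and both of experiment 2 lay above them, so that the groups overlapped. The log2 fold change was -0.01 (SE 0.51, 95% interval -1.19 to 1.16, adjusted p by edgeR = 0.999). On the log2 scale the knockout mean was -1.07 from wild type in experiment 1 and 0.57 in experiment 2. The test of that difference, an interaction of genotype and experiment, gave 1.63 (SE 0.44) and did not pass correction (edgeR adjusted p = 0.998). Each experiment holds 1 wild-type library. Without knockout 1, 2, 3 or 4 the interaction was 1.30, 2.03, 1.84 and 1.38. Each of these fits leaves an experiment with 1 library per genotype, so only the effect sizes are given. Against the wild type of their own experiment, Lif was higher in 4 of 4 knockout libraries and Il6 in 2 of 4. A difference between the 2 cytokine genes was not tested, and the interval of Il6 holds the value of Lif.

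The receptor genes hardly differed between genotypes. Osmr (chr15:6813577-6874313, minus strand), the oncostatin M receptor gene, was at 485 and 777 CPM in wild type 1 and 2 and at 503, 489, 804 and 802 CPM in knockout 1 to 4. Il6st (chr13:112464070-112506860, plus strand), which encodes gp130, was at 395 and 599 CPM in wild type and at 437, 420.3, 651 and 615 CPM in the knockout. For both genes the wild-type library of an experiment lay close below its 2 knockout libraries, while the experiments stood apart. Lifr (chr15:7129572-7197489, plus strand), the gene of the LIF receptor chain, was even over all 6 libraries, at 138 and 123 CPM in wild type and 128, 156, 144 and 146 CPM in the knockout. With the experiment block the log2 fold changes were 0.04 (95% interval -0.18 to 0.26) for Osmr, 0.10 (-0.12 to 0.32) for Il6st and 0.14 (-0.11 to 0.38) for Lifr, with edgeR adjusted p of 0.919, 0.766 and 0.684. By genotype alone the intervals were wider, from -0.60 to 0.68 for Osmr and -0.45 to 0.64 for Il6st.

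Stat3 and Socs3 were the most abundant genes of the axis and did not differ by genotype. Stat3 (chr11:100886810-100939511, minus strand) was at 1053 and 1083 CPM in wild type and at 926, 1000.3, 1105 and 1090.3 CPM in the knockout. Its log2 fold change was -0.05 (SE 0.13, 95% interval -0.34 to 0.24, adjusted p by edgeR = 0.969). Socs3 (chr11:117966087-117969366, minus strand), the feedback inhibitor whose promoter window holds the motif shown above, was at 1382 CPM in both wild-type libraries and at 1163, 1734, 1279.5 and 1166 CPM in knockout 1 to 4. The wild-type values were nearly equal while the knockout libraries lay on both sides of them, 3 below and 1 above. The log2 fold change of Socs3 was -0.05 (SE 0.18, 95% interval -0.47 to 0.37, adjusted p by edgeR = 0.984). With the block the 95% interval of Socs3 was -0.41 to 0.30. A difference between Socs3 and Lif was not tested.

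**Figure D2:**
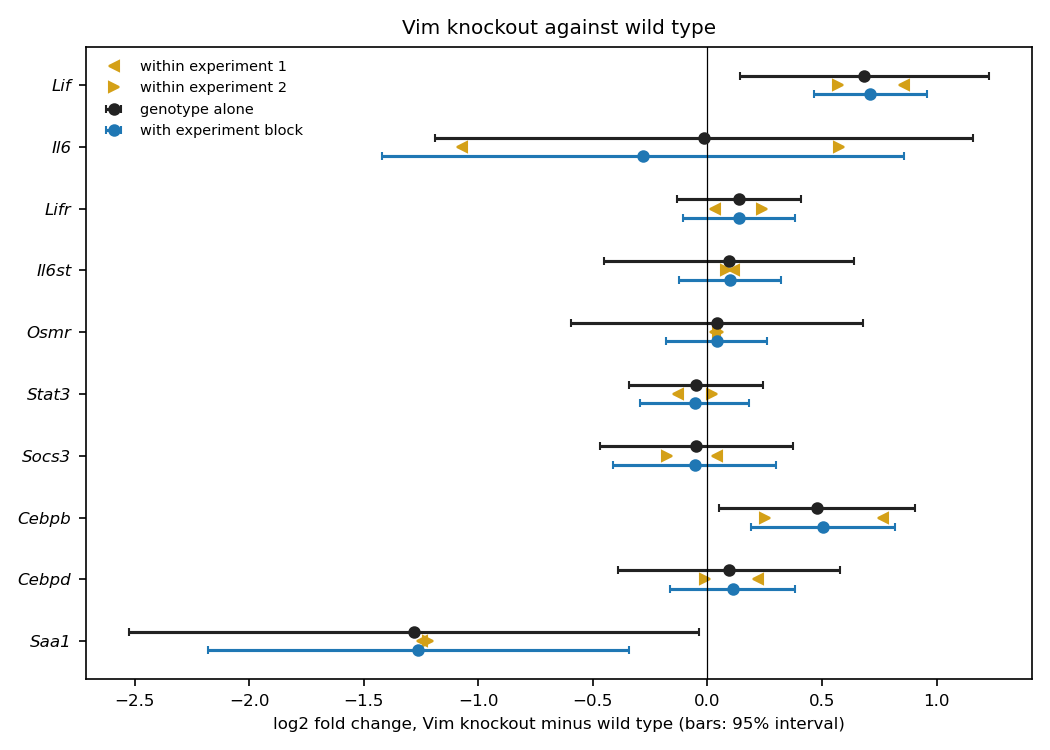
Log2 fold change of each axis gene, Vim knockout minus wild type (x axis, log2 scale), by genotype alone (black) and with the experiment block (blue), each with its 95% interval; triangles are the differences within experiment 1 and 2. The intervals of Lif and Cebpb lie above 0 and that of Saa1 below 0 in both fits, those of Osmr, Il6st, Lifr, Stat3, Socs3 and Cebpd span 0, and the triangles of Il6 lie at -1.07 and 0.57.

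The C/EBP genes encode leucine zipper factors that act in acute-phase and involution programmes. Cebpb (chr2:167688915-167690418, plus strand) was at 139 and 217 CPM in wild type 1 and 2 and at 214, 263, 247 and 269 CPM in knockout 1 to 4. Each knockout library was above the wild-type library of its experiment, and the groups overlapped only because knockout 1 was just below wild type 2. The difference of Cebpb was 0.48 on the log2 scale (SE 0.19, adjusted p by edgeR = 0.52) by genotype alone and 0.50 (SE 0.14, 95% interval 0.19 to 0.82, adjusted p = 0.119) with the block, and was called in neither. Leaving out wild type 1 gave 0.21 for Cebpb by genotype alone, and leaving out wild type 2 gave 0.83. With the block these leave-outs gave 0.27 and 0.77, which restate the differences of Cebpb within experiment 2 and experiment 1. The differences of Cebpb within the experiments were 0.76 and 0.25 on the log2 scale. The test of their difference gave -0.52 (SE 0.23, adjusted p by edgeR = 0.998). Leaving out 1 knockout library at a time, it ran from -0.66 to -0.37, in fits that leave an experiment with 1 library per genotype. Cebpd (chr16:15887286-15889545, plus strand) was at 102 and 156 CPM in wild type and at 135, 105, 163 and 148 CPM in the knockout, where the groups overlapped. Its log2 fold change was 0.09 (SE 0.21, adjusted p by edgeR = 0.966), or 0.11 with the block.

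Saa1 was near the lower limit of detection. Saa1 (chr7:46740499-46742980, minus strand) encodes serum amyloid A1, an acute-phase protein made mainly by liver. Its raw counts were 70 and 25 in wild type 1 and 2, then 31, 19, 17 and 6 in knockout 1 to 4, or 2.13 and 0.962 CPM against 0.975, 0.751, 0.571 and 0.236 CPM. Each knockout library was below the wild type of its experiment, and knockout 1 was level with wild type 2. The log2 fold change was -1.28 (SE 0.54, adjusted p by edgeR = 0.572) and -1.26 with the block (adjusted p = 0.185), so that Saa1 was not called. Leaving out wild type 1 gave -0.57 by genotype alone, and leaving out wild type 2 gave -1.73. Its neighbour Saa2 is a near-identical copy, reads shared by the pair were not counted, and both values are therefore uncertain.

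Serpina3n moved far more than any gene of the axis. Serpina3n (chr12:104406708-104414329, plus strand) was at 40.1 and 21.7 CPM in wild type 1 and 2 and at 532, 636, 590 and 510.4 CPM in knockout 1 to 4, with a wide gap between the groups. Its knockout mean was 18.3 times the wild-type mean, 14.5 times within experiment 1 and 25.3 times within experiment 2 (log2 fold change 4.19, SE 0.28, adjusted p by edgeR = 0.00132). Lif, with a ratio of 1.61, was the nearest of the 10 in the upward direction. Over the knockout libraries Serpina3n was highest in knockout 2, where Lif was lowest. Il6 was highest in knockout 4, where Serpina3n was lowest. A relation among these orders was not tested. The members of the Serpina3 cluster are close paralogs, and reads that fit several of them were not counted.

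By genotype alone edgeR called 0 of the 10 genes and 0.079% of the 13925 genes tested, and DESeq2 called 0 of the 10. For 3 of the 10 (Lif, Cebpb and Saa1) the unadjusted edgeR p was under 0.05, as it was for 1193 of the 13925. With the block 1 of 10 was called, Lif, against 1.56% of all genes. All 4 knockout libraries lay above both wild-type libraries for 1 of 10 genes (7.6% of all genes) and below both for 0 of 10 (8.57%). Each knockout library lay above the wild-type library of its experiment for 4 of 10 genes, Lif, Il6st, Osmr and Cebpb (15.6% of all genes), and below it for 1, Saa1 (16.6%). The knockout libraries lay on opposite sides of wild type in the 2 experiments for Il6 and Stat3 (18% of all genes). The median log2 fold change of the 10 was 0.07 by genotype alone, against -0.01 over all genes tested. By the interaction test 0 of 10 genes were called and 0 (0%) of all genes; 586 genes had an unadjusted p under 0.05 there, and DESeq2 called 11.

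More genes of the axis were called between the experiments than between the genotypes. With genotype in the model 4 of the 10 genes were called between experiments, each higher in experiment 2, against 6.43% of all genes called in either direction. On the log2 scale Osmr rose by 0.69 (SE 0.09, adjusted p by edgeR = 0.00558), from 485 to 503 CPM in experiment 1 to 777 to 804 CPM in experiment 2. Il6st rose by 0.58 (SE 0.09, adjusted p = 0.00962), Lif by 0.54 (SE 0.10, adjusted p = 0.0157) and Cebpd by 0.45 (SE 0.12, adjusted p = 0.0476). For Osmr, Il6st and Cebpd the 3 libraries of experiment 2 lay above the 3 of experiment 1, and the same held for 4 of the 10 genes in all, the other being Stat3, against 12.6% of all genes; Lif overlapped, because wild type 2 was below knockout 1 and 2. Il6 (1.04, SE 0.43) and Saa1 (-1.10) had the widest differences and were not called (adjusted p = 0.231 and 0.145). Socs3 (-0.16, adjusted p = 0.561), Lifr (-0.03, 0.9) and Stat3 (0.14, 0.446) were not called. All 4 calls were lost when either wild-type library was left out. The 4 knockout libraries alone then carry the comparison, so these 2 fits are not separate checks. Both gave differences of 0.69 for Osmr, 0.56 for Il6st, 0.44 for Lif and 0.37 for Cebpd. Without knockout 3 the calls of Lif (0.0518) and Cebpd (0.133) were lost, without knockout 4 those of Lif (0.0754), Il6st (0.0641) and Cebpd (0.125), and without knockout 2 that of Cebpd (0.0832). Marker lists moved with the experiments too: 10 of 12 luminal markers were below 0 in experiment 2 (median -0.45, 3 called lower, summed level 1695 to 1837 CPM in experiment 1 and 1512 to 1648 CPM in experiment 2). Of the endothelial markers 14 of 15 were below 0 and none was called (median -0.46, 74.5 to 319 against 79.5 to 137 CPM). The highest sum of each experiment, 319 and 137 CPM, was its wild-type library. The knockout libraries ran from 74.5 to 103 CPM over both experiments. Pericyte markers were divided, with 5 of 8 below 0 and none called (median -0.44). Their summed level was 302 to 503 CPM in experiment 1 and 311 to 543 CPM in experiment 2. Their part in the differences of the axis was not tested.

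**Figure D3:**
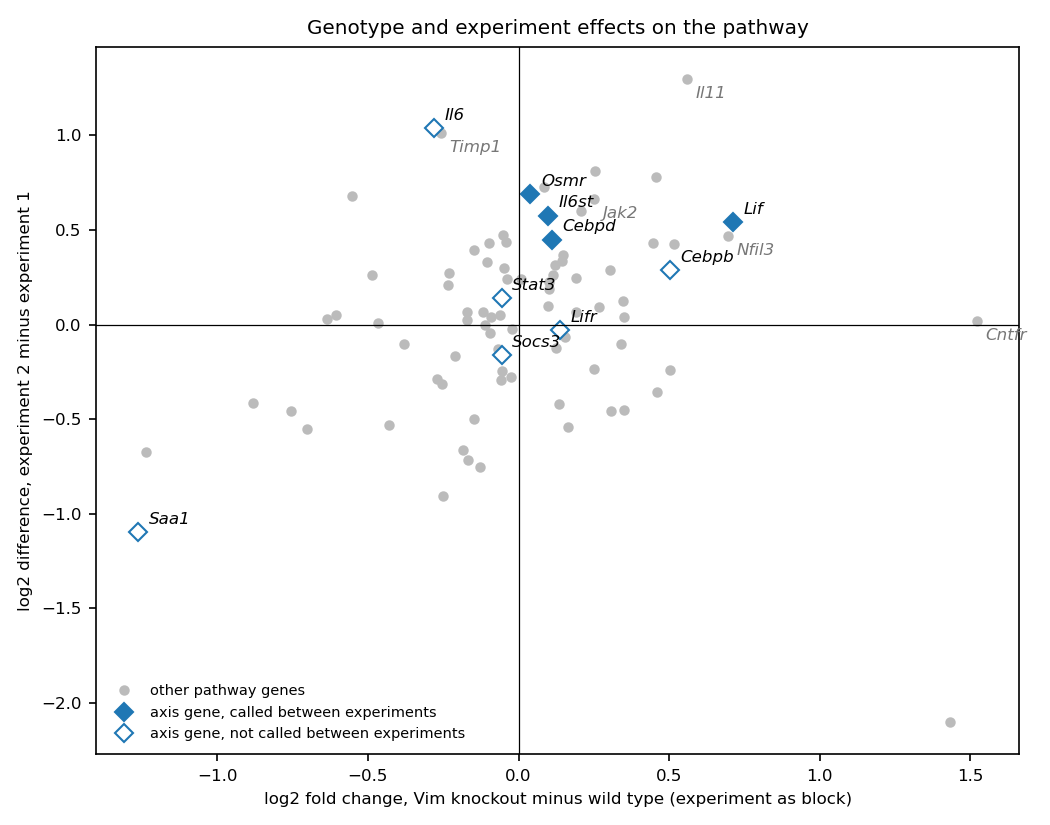
Log2 fold change by genotype with the experiment block (x axis) against the log2 difference of experiment 2 from experiment 1 (y axis); diamonds are the axis genes, filled where called between the experiments, and grey points are 77 other tested pathway genes. Osmr, Il6st and Cebpd lie near 0 on the genotype axis and between 0.45 and 0.69 on the experiment axis, and Lif is displaced on both.

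Of 99 other genes of the pathway on 6 lists, 77 were tested; 0 were called by genotype alone (0.079% of all genes) and 2 were called higher with the block, Cntfr and Nfil3 (1.56% of all genes were called in either direction). Cntfr, which encodes the ligand-binding chain for ciliary neurotrophic factor, another cytokine that signals through gp130 and the LIF receptor, was at 20.1 and 14.6 CPM in wild type and at 36.7, 55.6, 52.3 and 56.2 CPM in the knockout. The groups were well apart, and the log2 fold change was 1.53 (SE 0.22) by genotype alone (edgeR adjusted p = 0.0975) and 1.52 with the block (SE 0.22, adjusted p = 0.0185). Cntfr was called by DESeq2 (adjusted p = 2.58e-08), and by edgeR with no low-count filter (0.0286) and without knockout 1 (0.0354). With the block its call was lost without wild type 1 (log2 fold change 1.91) or wild type 2 (1.19), where a single experiment compares the genotypes. Its ligand gene Cntf was between 0.0385 and 0.504 CPM in every library. Nfil3, a leucine zipper transcription factor gene induced by STAT3, was at 85.2 and 111 CPM in wild type and at 117, 147, 179 and 197 CPM in the knockout. Its difference was 0.71 on the log2 scale (SE 0.22, adjusted p by edgeR = 0.372) by genotype alone and 0.70 with the block (SE 0.12, adjusted p = 0.0217). The call with the block was lost without knockout 4 (edgeR adjusted p = 0.0865). It was also lost without wild type 1 (log2 fold change 0.78) or wild type 2 (0.63), where a single experiment compares the genotypes.

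Among the other ligand genes 5 of 13 were tested and none was called. The 8 not tested reached at most 0.395 CPM, and Ctf2 had no count in any library. The cardiotrophin gene Ctf1 had a log2 difference of 0.24 (SE 0.22, adjusted p = 0.897). The other receptor genes gave 7 tested of 11, with 3 above 0 and 4 below. All 11 kinase and STAT genes were tested, with a median of -0.04 by genotype alone; Stat6 was at -0.21 (adjusted p = 0.805) and Src one of 0.14 (adjusted p = 0.855). Of the 16 inhibitor genes, 10 were above 0 and 6 below. Cish, a STAT5-induced feedback gene, had 0.48 (SE 0.24, adjusted p = 0.658) and Socs1 0.26 (SE 0.15, adjusted p = 0.738).

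STAT3 target genes were divided, with 12 of 28 above 0 and 16 below and a median of -0.06; 4 of the 28 (Fos, Junb, Myc and Klf4) are also on the list of immediate early genes. Acute-phase genes did not follow Serpina3n: 10 of 20 were tested, 3 were above 0 and 7 below, and the median was -0.11. Lrg1, a leucine-rich glycoprotein gene, was at 11.7 and 4.35 CPM in wild type and at 4.02 to 4.87 CPM in the knockout (log2 fold change -0.85, SE 0.35, adjusted p by edgeR = 0.544), a difference of 0.05 when wild type 1 was left out. Saa2 differed by -1.37 (log2, SE 0.66, adjusted p = 0.631), and by -0.13 when wild type 1 was left out. The most abundant of the acute-phase genes, Lcn2, which encodes lipocalin 2 and was chosen with its values in view, was at 1339 and 1047 CPM in wild type and at 953, 1146, 1278 and 1217.5 CPM in the knockout, below the wild type of the same experiment in experiment 1 and above it in experiment 2.

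Between the experiments 12 of the 77 were called, 9 higher and 3 lower in experiment 2, against 6.43% of all genes. They were chosen for naming after their values were seen. Il11, a further ligand of gp130, rose by 1.30 (SE 0.19, adjusted p by edgeR = 0.0109), from 32.7 to 71.5 CPM in experiment 1 to 117 to 148 CPM in experiment 2. The kinase gene Jak2 rose by 0.66 (SE 0.10, adjusted p = 0.00656) and the IL6 receptor gene Il6ra by 0.47 (SE 0.10, adjusted p = 0.0194). The protease inhibitor gene Timp1 (1.01, adjusted p = 0.00283) and Bcl3 (0.78, adjusted p = 0.00698) rose among the STAT3 target genes, as did Steap4 and Nfil3. Stat2, of the kinases and STATs, and the phosphatase gene Ptpn2, of the inhibitors, rose as well. The genes lower in experiment 2 were Stat5b (-0.91, adjusted p = 0.00601), Tyk2 (-0.72, adjusted p = 0.0152) and Bcl2l1 (-0.67, adjusted p = 0.019).

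**Figure D4:**
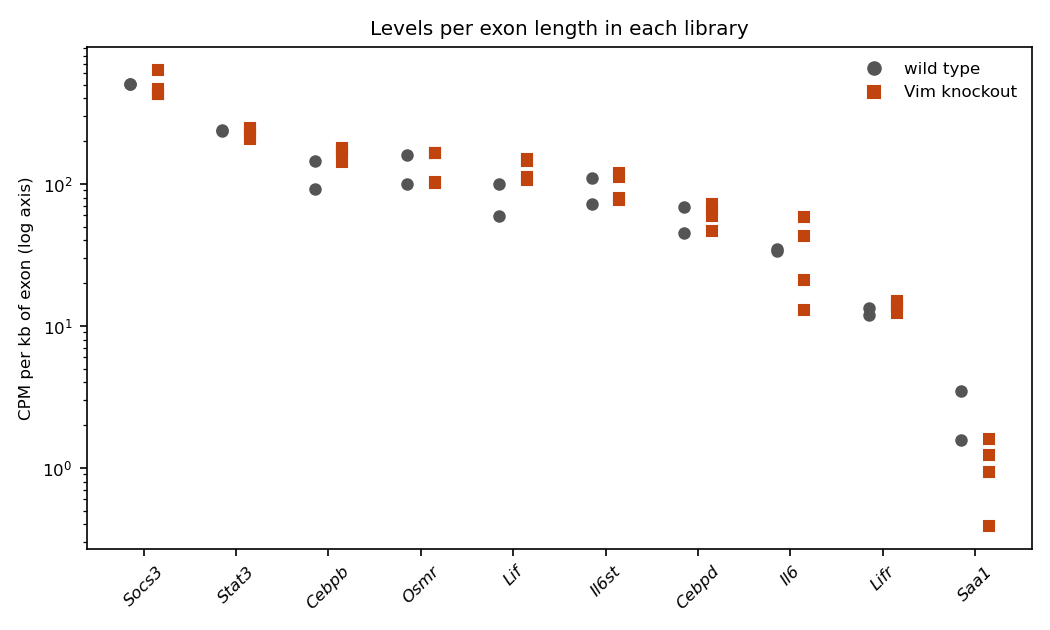
CPM per kb of annotated exon (y axis, log scale) of the 10 axis genes in order of their mean over 6 libraries; circles are wild type and squares Vim knockout. Socs3 and Stat3 lie above all others, and Saa1 lies below them.

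Per length, Socs3 was the most abundant of the 10, at 496 CPM per kb of exon (mean of 6 libraries, 427 to 637), and Stat3 followed at 232 (206 to 246). Cebpb (149 CPM per kb), Osmr (133), Lif (112) and Il6st (95.3) came next, and neighbours among these overlapped in their range over libraries. Cebpd (59.6) overlapped Il6 (34.1), and Il6 overlapped Lifr (13.5). Saa1 was lowest, at 1.54 CPM per kb. Socs3, Stat3 and the group from Cebpb to Il6st did not overlap each other, nor did Il6st and Cebpd or Lifr and Saa1. So gp130 message was well above that of the LIF receptor chain per length, with no overlap (72.4 to 119 against 11.9 to 15.1 CPM per kb).

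Saa1, Il6 and Lif had the widest ranges over the libraries, at 2.84, 2.19 and 1.33 on the log2 scale. The 3 genes most like each were sought among 11299 genes by the root mean square difference of their centred log2 CPM over 6 libraries. For Lif they were Nalcn (0.08), Fam107b (0.08) and Lass6 (0.11); Fam107b went from 108 and 183 CPM in wild type to 187, 175, 246 and 227 CPM in the knockout. For Il6 they were Rnd1 (0.27), Stat4 (0.29) and Stc1 (0.30), and for Saa1 Muc15 (0.29), Adamts7 (0.31) and Kcnk2 (0.32). With 6 libraries and so many genes, close matches are easily found, and these are given as a description.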

How the data were processed

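RNA of 6 pools of sorted cells (2 wild type, 4 knockout) was sequenced, and raw read counts per gene were deposited. Per the file headers, the authors counted reads over exons of the UCSC mm10 annotation with featureCounts 1.5.1, reverse-stranded and without reads that map to several places or overlap several genes. The submitters' processing notes also name bcl2fastq 2.17, STAR 2.5.2b and Subread 1.5.1. No exon of the 10 genes or Serpina3n overlapped another gene's exon on its strand.

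Counts were filtered with filterByExpr (13925 of 23337 genes tested, 9412 set aside) and scaled by TMM. The main test was edgeR 4.0.16 (R 4.3.3; robust glmQLFit, glmQLFTest, 2-sided) with genotype as the only term, and Benjamini-Hochberg adjusted p-values over all tested genes were called under 0.05. Standard errors are the log2 fold change over the root of F, and intervals (95%) use the test's degrees of freedom. Log2 CPM used a prior count of 2. The experiments were compared with genotype in the model, and the interaction was tested. DESeq2 1.42.0 and limma-voom (limma 3.58.1) were alternatives. The script was tested on simulated data.

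The day code was taken to pair libraries: deviations from the group means correlated at 0.25 to 0.41 within experiments across genes. These values mirror each other with 2 wild-type libraries. The genes, lists, tests and naming rule were chosen with earlier results of these data known. The rule named the 10 genes and Serpina3n; of each of 6 pathway lists the genes called with or without the block, or else the 2 with the lowest p; the 2 most abundant members of marker lists; and the 3 genes most like each of the 3 members of widest range, among the 11299 genes whose mean log2 CPM reached 1. A gene that the rule names among the other ligands is not reported here.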

Additional observations from a re-analysis of the deposited data

Results flagged for a closer look

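For Il6 both knockout libraries of experiment 1 lay below their wild-type library and both of experiment 2 above it, and the knockout effect was larger by 1.63 on the log2 scale in experiment 2 (SE 0.44), a difference that did not pass correction (adjusted p = 0.998 by edgeR). The knockout libraries of Stat3 also lay on opposite sides of wild type, but by small amounts. Their log2 differences were -0.13 in experiment 1 and 0.02 in experiment 2, and the interaction was 0.15 (adjusted p = 0.998 by edgeR). Over all genes tested 18% were split like this. No knockout library of the 10 genes or Serpina3n stood apart from the other 3 by Dixon's criterion.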

How the results depend on the processing

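Genes called by genotype numbered 11, and 262 with DESeq2, 217 with the experiment as replicate block (1 of the 10 axis genes) and 17 with the title number as block. Deviations correlated at 0.316 for the pair numbered 1 and at -0.286 for the pair numbered 2, so the title numbers do not pair the libraries, and with them Il6st (-0.18), Osmr (-0.31), Socs3 (0.0397) and Cebpd (-0.0825) changed sign. Il6 was at 0.00142 with DESeq2 and 0.000204 with DESeq2 size factors. Between experiments DESeq2 called 1473 genes, and in the interaction test 11, or 7 with no low-count filter. Leaving out 1 library at a time, the genotype count ran from 3 without knockout 3 to 15 without knockout 1, the experiment count from 24 without wild type 2 to 1871 without knockout 1 (0 to 4 axis genes), the interaction count from 3 to 382 and the count with the block from 4 without wild type 1 to 960 without knockout 1 (0 to 1 axis genes). Each interaction fit without a knockout library leaves an experiment with 1 library per genotype, so its count cannot show that the knockout effect differs. With 1 library left out at a time the log2 fold changes ran as follows. By genotype alone: Il6 -0.42 to 0.28, Il6st -0.16 to 0.43, Osmr -0.24 to 0.42, Stat3 -0.0868 to 0.014, Socs3 -0.18 to 0.0299, Cebpd -0.16 to 0.43, Lrg1 -1.39 to 0.0544. Between experiments: Lifr -0.13 to 0.037, Socs3 -0.29 to 0.041. In the interaction: Il6st -0.0788 to 0.0017, Osmr -0.00398 to 0.035, Socs3 -0.51 to 0.0708, Saa1 -0.71 to 0.54. With the experiment block: Il6 -1.03 to 0.61, Stat3 -0.13 to 0.036, Socs3 -0.19 to 0.0684, Lrg1 -1.41 to 0.0745. Of the recomputed log2 fold changes, 464 kept their direction and side of the threshold, 34 changed sign, 22 were weaker and 12 stronger. The counts of called genes are not part of this tally. Scaling moved the median of all genes by less than 0.1. The cause of each change was not tested. Saa1 rests on 6 to 70 counts per library, and every comparison on 2 wild-type libraries.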
